A study of Mus musculus with 9 samples.

Results

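Transcripts that belong to the structural cells of the lung were followed in RNA of neutrophils sorted from that organ. The 40 genes were chosen by symbol, as names known from textbooks, out of 22064 genes listed. Earlier results of these data were known at that choice, so counts over the 40 genes describe the set and do not test it. The set held 17 genes of epithelial cells, 11 of endothelial cells and 12 of fibroblasts and other mesenchymal cells. All 40 had values and all 40 were among the 14108 genes that passed the filter on low counts. For 39 of the 40 genes every library from macrometastatic lung lay below every library from normal lung in scaled counts (CPM). The median fold over the 40 genes was 10.6 for the Ly6g-high cells. The exception was the epithelial gene *Hopx*, whose macrometastatic libraries were above in CPM but below in FPKM, the deposited values per transcript length. Of all genes tested, 45% had every library below in CPM for the Ly6g-high cells and 47.5% for the Ly6g-low cells.

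The 9 libraries were bulk RNA-seq of neutrophils from lungs of female BALB/c mice, with 3 replicates in each of 3 groups. Ly6Ghi and Ly6Glow were CD45+ cells with high or low surface Ly6g from lungs with macrometastases, which had formed after 4T1-LM3 cells were injected into the mammary fat pad. 4T1-LM3 was selected for growth in lung from 4T1, a mammary carcinoma line of the mouse. NL were CD45+ cells with high Ly6g from normal lung tissue. Lungs were digested with collagenase and treated with red cell lysis buffer before sorting. Apart from the tumour cell injection no treatment is named in the labels, nor is an engineered allele, the ages of these mice are not given there, and it is not said whether a library held cells of 1 mouse or of several, so p-values measure the spread between these libraries only. There was no Ly6g-low group from normal lung. The description field of the NL libraries names only the Ly6g-high group, and their place in normal lung rests on their titles and treatment fields.

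An alveolus is lined by flat type I cells, which carry out gas exchange and carry the receptor Ager and the water channel Aqp5, and by cuboidal type II cells, which secrete surfactant and are known by Sftpc. The airways are covered by ciliated and secretory cells, among them club cells, which make secretoglobins. Beneath the epithelium lies a dense bed of capillary endothelium, held together by the cadherin Cdh5 and dependent on the growth factor receptor Kdr, and fibroblasts that lay down collagen and elastin. Neutrophils of the lung sit in these capillaries, in direct contact with the endothelium, and a sort on CD45 and Ly6g is meant to leave the structural cells, which lack CD45, behind.

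Library totals ran from 15267177 to 17841807 estimated counts. Levels are given as CPM, counts scaled to the library total and by TMM, whose factors were 0.945 to 0.95 in Ly6Ghi, 0.803 to 0.807 in Ly6Glow and 1.3 to 1.32 in NL. The neutrophil genes marked all 3 groups, but unequally: the summed level of 14 neutrophil identity genes was 96900 to 99200 CPM in Ly6Ghi, 90500 to 92300 CPM in Ly6Glow and 23800 to 24000 CPM in NL, and 14 of the 14 were called higher in Ly6Ghi and 13 in Ly6Glow than in NL, where 26.3% and 28.7% of all genes tested were called higher. Their main genes, *S100a9* and *S100a8*, which encode the chains of calprotectin, were at 31670 and 23570 CPM in Ly6Ghi, 30620 and 22040 CPM in Ly6Glow and 7563 and 4478 CPM in NL. *Ly6g*, on which the cells were sorted, stood at 374 ± 10.8 CPM in Ly6Ghi, 394 ± 9.32 CPM in Ly6Glow and 119 ± 1.4 CPM in NL (SD, n = 3), so its transcript was not higher in the Ly6Ghi than in the Ly6Glow libraries (log2 fold change of Ly6Glow minus Ly6Ghi 0.08, adjusted p = 0.0577, edgeR). *Ptprc*, which encodes CD45, was at 2430 ± 21.6, 3556 ± 89.8 and 1509 ± 101 CPM in the same order. NL replicate 2 stood apart from the other NL libraries, with a mean chi-square per gene of 5.3 against NL replicate 1 and 4.05 against NL replicate 3, where the other replicate pairs of all groups gave 1.41 to 2.51. A value of 1 stands for counting noise alone. The spread between replicates beyond counting noise was small, with a common coefficient of variation of 0.0346 in edgeR. The small p-values below rest on this spread and do not measure a spread between mice.

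The first comparison asked how the level of structural transcripts differed between neutrophils of macrometastatic and of normal lung. A gene was called when the adjusted p of edgeR's quasi-likelihood test was at most 0.05 and the log2 fold change exceeded 0.58 in size. In Ly6Ghi, 39 of the 40 genes were called lower than in NL and 0 higher (1 was higher at an unadjusted p under 0.05, and 0 were called higher by DESeq2), where 36.6% of all genes tested were called lower and 26.3% higher, 62.9% together. The median log2 fold change of the 40 genes was -3.41, with quartiles of -3.71 and -2.69, and that of all genes tested was -0.09. The same 39 genes had every Ly6Ghi library below every NL library, a separation that 45% of all genes tested showed, and *Hopx* had every Ly6Ghi library above, as 40.2% of all genes had, so that 85.2% of all genes did not overlap. In Ly6Glow, 38 of the 40 genes were called lower than in NL and 0 higher (1 at an unadjusted p under 0.05 and 1 by DESeq2, *Hopx* in both), against 40.8% and 28.7% of all genes tested, 69.5% together, with a median of -3.38 beside -0.16 for all genes. Every Ly6Glow library was below every NL library for 39 genes, as for 47.5% of all genes, and above for *Hopx*, as for 39.4%, which makes 86.8% without overlap. Both comparisons use the same 3 NL libraries. Without NL replicate 2 the counts were again 39 and 38. In bulk RNA, fewer cells of a type and less RNA per cell cannot be told apart.

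**Figure D1:**
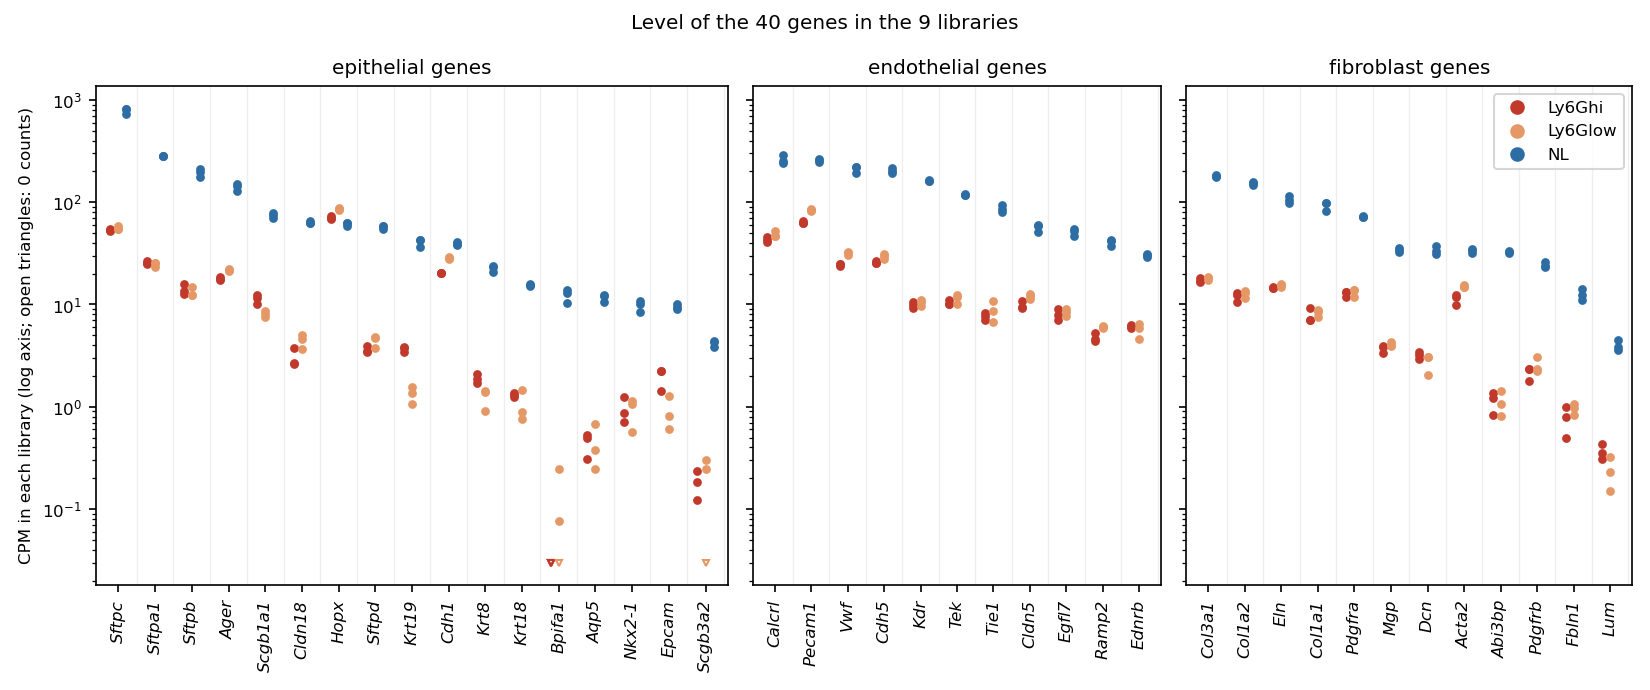
Level of each of the 40 genes in each of the 9 libraries, in CPM on a log axis, with the genes of a class ordered by their level in NL. Each point is 1 library, open triangles at the foot stand for libraries with 0 counts, and the NL points lie above all others for every gene but *Hopx*, whose NL libraries are the lowest.

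The surfactant genes of type II cells made up the largest part of the epithelial signal in NL. *Sftpc* (NCBI Gene 20389, chr14:70520941-70524081, mm10), which encodes surfactant protein C, was at 820, 732 and 815 CPM in the NL libraries, at 52.8, 55.3 and 51.8 CPM in Ly6Ghi and at 55.1, 58.1 and 54.5 CPM in Ly6Glow. The macrometastatic libraries lay in a narrow band far below the NL libraries, and NL replicate 2 was the lowest of its group. The log2 fold change was -3.89 (SE 0.048, adjusted p = 2.54e-24, edgeR) for Ly6Ghi and -3.82 (SE 0.0489, adjusted p = 2.79e-24) for Ly6Glow.

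*Sftpa1*, a collectin of the surfactant (chr14:41131788-41136373), was at 284, 285 and 285 CPM in NL, 25.4, 26.4 and 24.8 CPM in Ly6Ghi and 23.2, 25.1 and 25.6 CPM in Ly6Glow. Its log2 fold change was -3.48 in Ly6Ghi (SE 0.044) and -3.53 in Ly6Glow (SE 0.0461). *Sftpb*, whose protein spreads the surfactant film (chr6:72304610-72314373), fell from 195 ± 17 CPM in NL (SD, n = 3), with log2 fold changes of -3.81 and -3.89. *Sftpd*, the second collectin, fell from 56.9 ± 2.04 CPM, with -3.98 and -3.69. The 4 surfactant genes thus fell by like amounts, with log2 fold changes between -3.48 and -3.98, although their levels in NL ran from 58.3 to 1366 in mean FPKM. *Nkx2-1*, the transcription factor that drives surfactant genes, was rare: it was at 10.2, 8.49 and 10.8 CPM in NL, at 0.708 to 1.24 CPM in Ly6Ghi and at 0.569 to 1.13 CPM in Ly6Glow. Its log2 fold change was -3.39 in both comparisons (SE 0.188 and 0.203).

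*Nkx2-1* and the surfactant genes fell as most of the 40 genes did in all classes, so their common fall does not set them apart. The letters CTCAAG, the core that NKX2-1 is known to bind, were looked for on both strands in the bases from 250 to 7 before each gene's start in RefSeq's promoter windows (GRCm38.p6, the same assembly as mm10). Of the 40 genes, 23 had a window, and 5 of these held the letters: *Sftpa1*, *Sftpb*, *Bpifa1*, *Hopx* and *Pdgfra*. By class these were 4 of 11 epithelial, 0 of 7 endothelial and 1 of 5 fibroblast genes, and 14.9% of all 27025 genes with a window held them in at least 1 window. The windows of the 4 epithelial genes are shown 5′ to 3′ in the direction of the gene, with the match in capitals, CTCAAG or its reverse complement CTTGAG. They are shown since they include *Sftpa1* and *Sftpb*, which fell, and *Hopx*, which was lower in FPKM but not in CPM.
Sftpa1, chr14:41131538-41131781, plus strand: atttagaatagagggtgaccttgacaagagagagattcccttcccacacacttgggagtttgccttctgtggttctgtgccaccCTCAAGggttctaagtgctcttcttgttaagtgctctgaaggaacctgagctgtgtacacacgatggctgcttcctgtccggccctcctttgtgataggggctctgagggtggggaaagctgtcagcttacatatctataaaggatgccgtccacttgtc
Sftpb, chr6:72304360-72304603, plus strand: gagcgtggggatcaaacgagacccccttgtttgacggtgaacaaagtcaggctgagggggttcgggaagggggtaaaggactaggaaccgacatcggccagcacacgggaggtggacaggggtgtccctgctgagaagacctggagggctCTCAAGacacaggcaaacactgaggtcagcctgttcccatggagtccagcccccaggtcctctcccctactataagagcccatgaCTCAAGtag
Bpifa1, chr2:154142630-154142873, plus strand: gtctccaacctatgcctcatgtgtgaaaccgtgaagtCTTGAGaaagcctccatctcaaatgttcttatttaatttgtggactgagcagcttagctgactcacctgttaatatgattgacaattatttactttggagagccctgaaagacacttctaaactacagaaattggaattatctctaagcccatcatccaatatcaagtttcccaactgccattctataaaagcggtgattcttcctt
Hopx, chr5:77115130-77115373, minus strand: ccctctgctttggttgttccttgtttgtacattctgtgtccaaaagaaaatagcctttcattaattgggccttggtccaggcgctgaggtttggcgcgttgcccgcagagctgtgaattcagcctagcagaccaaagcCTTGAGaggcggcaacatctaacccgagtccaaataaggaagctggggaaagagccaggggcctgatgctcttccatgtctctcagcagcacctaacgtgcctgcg
*Sftpb* held 2 matches, which begin 100 and 15 bases before the start, and *Sftpa1* held 1, which begins 166 bases before it. The matches of *Bpifa1* and *Hopx* are on the other strand. *Hopx* had 2 windows, and only the window with a match is shown. A match describes letters, not a bound site, and a part of NKX2-1 in these levels was not tested. *Hopx* was not lower in any macrometastatic library on the CPM scale. In FPKM it was lower in all of them, at 59.96 to 64.99 against 67.99 to 73.71 in NL. *Sftpc* and *Sftpd* had no window.

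Type I cell genes followed. *Ager*, the receptor for advanced glycation end products (chr17:34597460-34600937), was at 145, 129 and 150 CPM in NL against 18.6, 17.5 and 17.9 CPM in Ly6Ghi, and was 21.8, 22.3 and 21 CPM in Ly6Glow. The groups did not overlap, and the log2 fold changes were -2.98 (SE 0.0609) and -2.71 (SE 0.0618). *Aqp5*, which lets water pass the type I cell membrane, fell more, from 11.7 ± 0.88 CPM to 0.445 ± 0.12 and 0.434 ± 0.222 CPM (SD, n = 3), with log2 fold changes of -4.69 and -4.71. *Cldn18*, a tight junction claudin of the alveolus, fell from 63.6 ± 1.25 CPM, with -4.38 in Ly6Ghi and -3.84 in Ly6Glow.

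*Hopx*, which encodes a small homeodomain protein of type I cells but is not restricted to them, was the only gene of the 40 that was called in neither comparison with NL. It was at 62.1, 62.1 and 58.2 CPM in NL, at 73.2, 70.7 and 68 CPM in Ly6Ghi and at 85.8, 88.1 and 84.1 CPM in Ly6Glow. All macrometastatic libraries were above all NL libraries on this scale, with log2 fold changes of 0.22 (SE 0.0454, adjusted p = 0.000161, edgeR) and 0.50 (SE 0.0457, adjusted p = 1.15e-09), both below the fold threshold. On log2(FPKM + 1) the sign turned, to -0.2 and -0.16, and with DESeq2's size factors the second value was 0.59, just past the threshold. The gene overlaps an antisense gene, Hopxos, in the GENCODE annotation, and the sources used here do not say whether counting used the strand. Such an overlap is not particular to *Hopx*: 11 of the 40 genes overlap another annotated gene. Among them *Cldn18*, *Nkx2-1*, *Cdh5* and *Eln*, which were called lower, also have an antisense gene.

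Airway genes fell as well. *Scgb1a1*, the club cell secretoglobin (chr19:9083642-9087956), was at 77.5, 74.3 and 70.4 CPM in NL, at 12.5, 11.7 and 10.2 CPM in Ly6Ghi and at 8.69, 8.13 and 7.47 CPM in Ly6Glow, which gave log2 fold changes of -2.69 (SE 0.0683) and -3.19 (SE 0.0774). *Scgb3a2*, a second secretoglobin, fell from 4.20 ± 0.29 CPM, with -4.47 (SE 0.317) and -4.48 (SE 0.345). *Bpifa1*, a secreted antimicrobial protein of the upper airways, was at 12.8, 13.9 and 10.4 CPM in NL and at 0 counts in all 3 Ly6Ghi libraries, at least 67.7-fold lower when each Ly6Ghi library is set at a floor of 3 counts. The Ly6Glow libraries held 4 reads of it in all, against 820 in NL, which after scaling for library size and TMM is a ratio of 120 with a 95% counting interval of 46.5 to 440, which covers counting error only.

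The general epithelial genes included the second exception. *Krt8* and *Krt18*, the keratin pair of simple epithelia, which are neighbours on chromosome 15, fell together, with log2 fold changes of -3.58 (SE 0.116) and -3.57 (SE 0.136) in Ly6Ghi and -4.18 (SE 0.137) and -3.90 (SE 0.154) in Ly6Glow. A pseudogene of the first, Krt8-ps, is annotated, so part of its reads could be shared. *Krt19*, another simple keratin, had -3.47 and -4.94, and *Epcam*, an adhesion molecule of epithelia and carcinomas, had -2.28 and -3.40. *Cdh1*, which encodes E-cadherin (chr8:106603350-106670247), fell least: it was at 41, 39 and 37.8 CPM in NL, at 20.1 to 20.3 CPM in Ly6Ghi and at 28.8, 28.3 and 27.7 CPM in Ly6Glow. The groups did not overlap, and the log2 fold change was -0.96 (SE 0.057, adjusted p = 6.82e-13, edgeR) in Ly6Ghi. In Ly6Glow it was -0.47 (SE 0.0564, adjusted p = 8.05e-08), short of the fold threshold, but -1.04 on log2(FPKM + 1), past it.

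All 11 endothelial genes were called lower in both groups, against 36.6% of all genes tested in Ly6Ghi and 40.8% in Ly6Glow. Their median log2 fold change was -2.98 in Ly6Ghi and -2.75 in Ly6Glow. *Kdr*, the main receptor for vascular endothelial growth factor (chr5:75932827-75979072), fell the most of them. It was at 164, 159 and 161 CPM in NL, at 9.23, 10.7 and 9.84 CPM in Ly6Ghi and at 9.67, 10.5 and 11.1 CPM in Ly6Glow, with log2 fold changes of -4.02 (SE 0.0568, adjusted p = 1.62e-23, edgeR) and -3.95 (SE 0.0594, adjusted p = 3.12e-23). The angiopoietin receptor *Tek* and its relative *Tie1* fell nearly as much, with -3.51 (SE 0.0602) and -3.50 (SE 0.0914) in Ly6Ghi and -3.37 and -3.30 in Ly6Glow. These 3 receptor tyrosine kinases had the largest falls of the class.

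Genes of endothelial junctions and clotting lay between. *Cdh5*, VE-cadherin (chr8:104101613-104144504), was at 217, 195 and 203 CPM in NL, 26.6, 25.6 and 25.7 CPM in Ly6Ghi and 31, 29.9 and 28 CPM in Ly6Glow, with log2 fold changes of -2.98 (SE 0.0516) and -2.79 (SE 0.0527). *Vwf*, von Willebrand factor, which endothelial cells and megakaryocytes make, fell from 211 ± 16.7 CPM in NL, with -3.11 and -2.75. *Cldn5*, the claudin of endothelial tight junctions, fell from 56.6 ± 4.57 CPM, with -2.53 and -2.24.

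*Pecam1* had the highest mean FPKM of the endothelial genes in both macrometastatic groups and fell the least of the class. It encodes CD31, which leukocytes, neutrophils included, also carry (chr11:106654213-106715281). It was at 256, 247 and 262 CPM in NL, at 65, 62.6 and 62.1 CPM in Ly6Ghi and at 86.5, 84.4 and 81.7 CPM in Ly6Glow, with log2 fold changes of -2.01 (SE 0.04) and -1.60 (SE 0.0398). The peptide receptor genes fell by intermediate amounts. *Calcrl*, the calcitonin-like receptor, fell from 261 ± 24.8 CPM, with log2 fold changes of -2.60 and -2.43, *Ramp2*, its partner, had -3.09 and -2.75, and *Ednrb*, an endothelin receptor, had -2.31 and -2.42. *Egfl7*, a secreted vascular factor, had -2.69 and -2.61. *Ramp2* and *Egfl7* each overlap a protein-coding gene on their own strand in the annotation, and their counts are uncertain to that extent.

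All 12 fibroblast genes were called lower in both groups, with a median log2 fold change of -3.41 in each. Of all genes tested, 36.6% were called lower in Ly6Ghi and 40.8% in Ly6Glow. The fibrillar collagens moved together. *Col3a1* (chr1:45311538-45349706) was at 182, 176 and 186 CPM in NL, at 18.2, 17.1 and 16.5 CPM in Ly6Ghi and at 18.3, 18.4 and 17.5 CPM in Ly6Glow, and its log2 fold changes were -3.39 (SE 0.0501) and -3.33 (SE 0.0521). The macrometastatic groups overlapped each other and lay far below NL. *Col1a1* and *Col1a2*, the chains of type I collagen, had -3.57 and -3.67 in Ly6Ghi and -3.50 and -3.59 in Ly6Glow.

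Among genes of the surrounding matrix, the largest fall was that of *Abi3bp*, a matrix protein gene (chr16:56477801-56690135), which was at 32.1, 32.9 and 33.1 CPM in NL, at 1.23, 0.826 and 1.36 CPM in Ly6Ghi and at 0.812, 1.43 and 1.07 CPM in Ly6Glow. Its log2 fold changes were -4.84 (SE 0.12) and -4.87 (SE 0.13), the largest among the 12 genes. *Fbln1*, a fibulin of basement membranes, had -4.01 and -3.70. The small proteoglycans *Dcn* and *Lum*, which bind collagen fibrils, had -3.40 and -3.43 in Ly6Ghi and -3.62 and -4.06 in Ly6Glow, although *Lum* was at 0.151 to 0.431 CPM in the 6 macrometastatic libraries and its SE reached 0.296. *Mgp*, an inhibitor of calcification, had -3.20 and -3.06, and *Eln*, which encodes elastin, had -2.86 and -2.78 from 106 ± 8.03 CPM in NL.

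The receptor genes of mesenchymal cells differed somewhat. *Pdgfrb*, the receptor of pericytes and smooth muscle, had log2 fold changes of -3.48 and -3.24, and *Pdgfra*, the fibroblast receptor, had -2.50 and -2.45. *Acta2*, smooth muscle actin (chr19:34240336-34255585), fell least of the 12 genes. It was at 34.9, 31.8 and 33.8 CPM in NL, at 11.9, 12.3 and 9.9 CPM in Ly6Ghi and at 14.8, 15.4 and 14.8 CPM in Ly6Glow, with log2 fold changes of -1.56 (SE 0.074, adjusted p = 1.24e-14, edgeR) and -1.16 (SE 0.074, adjusted p = 2.25e-12). The groups did not overlap.

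**Figure D2:**
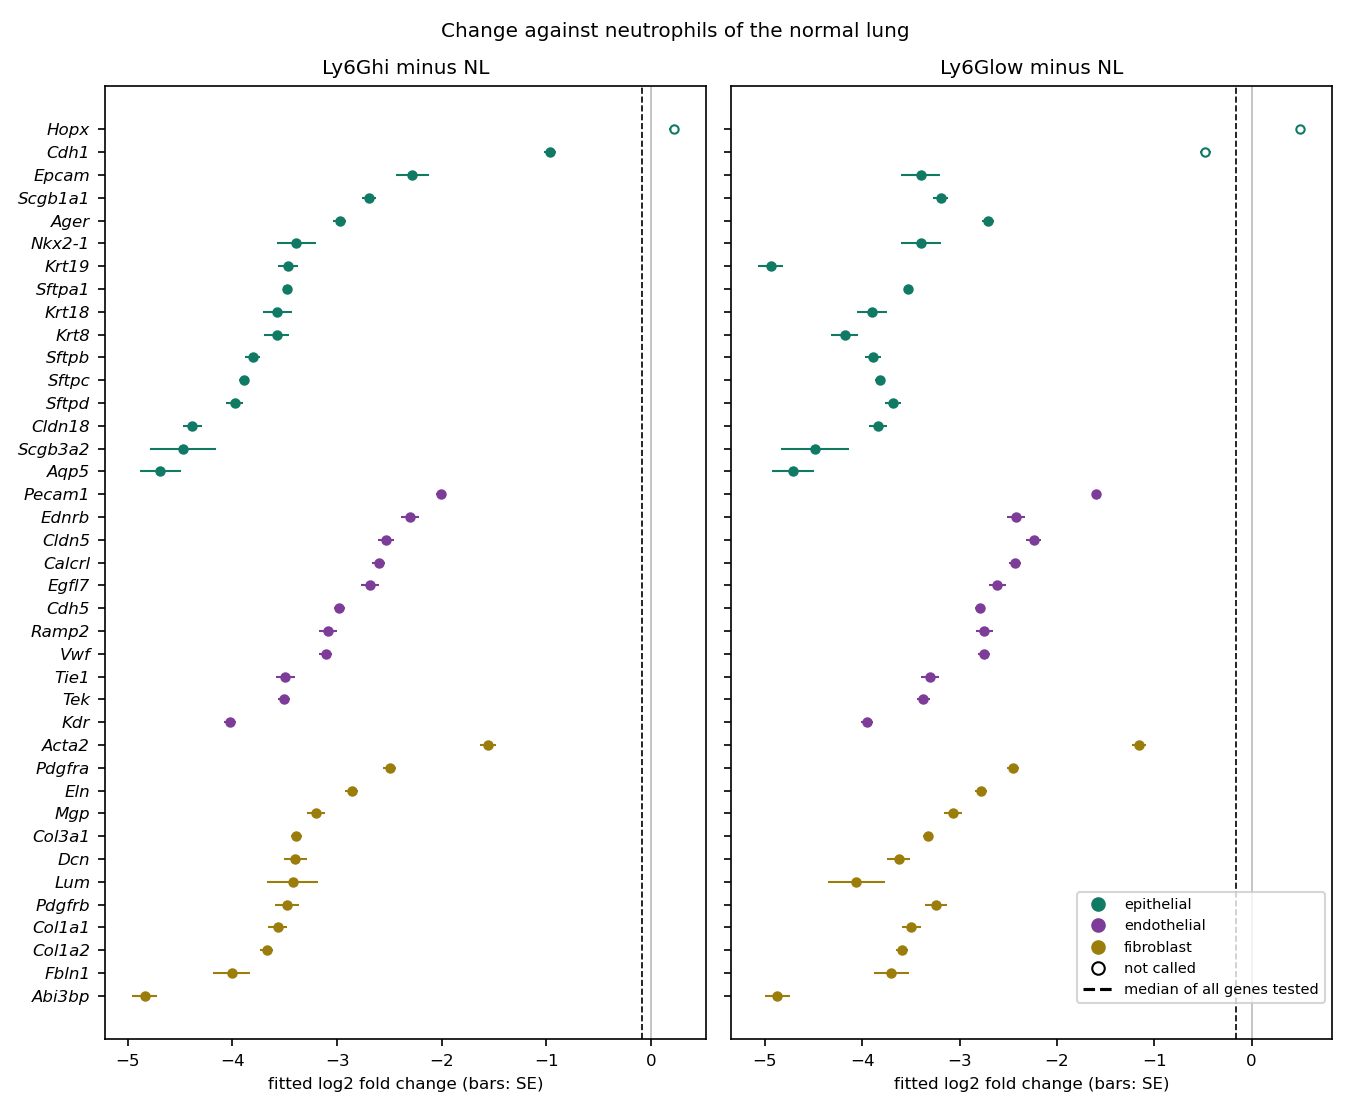
Fitted log2 fold change of each gene, with its SE, for Ly6Ghi minus NL on the left and Ly6Glow minus NL on the right, ordered within each class by the left panel. *Bpifa1* is left out, since its fitted value against 0 counts has no meaning as a size, and most genes of all 3 classes lie between -2 and -5 while the dashed line, the median of all genes tested, lies near 0.

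Most other genes of the same cells, on lists that held none of the 40, went the same way. These lists too were chosen with earlier results of these data known, so they are no independent check. Of 28 other alveolar and airway epithelial genes tested, 27 were called lower and 1 higher in both Ly6Ghi and Ly6Glow, of 27 other endothelial genes 26 and 27 were called lower and 0 higher, and of 33 other fibroblast, smooth muscle and mesothelial genes 31 were called lower in each and 2 and 1 higher. Their medians were -3.35, -3.11 and -2.96 in Ly6Ghi, near those of the 40 genes. Of all genes tested, 36.6% were called lower and 26.3% higher in Ly6Ghi, and 40.8% lower and 28.7% higher in Ly6Glow. The epithelial exception was *Napsa*, an aspartic protease of type II cells, at 150 ± 5.16 CPM in Ly6Ghi, 150 ± 4.14 CPM in Ly6Glow and 72.7 ± 3.1 CPM in NL (SD, n = 3). The mesenchymal exceptions were *Pi16*, at 472 ± 6.3, 634 ± 26.7 and 192 ± 14.1 CPM, and *Col5a1*, a fibrillar collagen chain, which was called in Ly6Ghi with a log2 fold change of 1.53 but not in Ly6Glow with 0.22. The endothelial gene not called was *Erg*, a transcription factor, with 0.10 in Ly6Ghi. *Col5a1* and *Erg* are named because their values set them apart. Among the others were *Clic5*, a type I cell channel protein, with log2 fold changes of -3.13 and -2.87, *Ptprb*, an endothelial phosphatase, with -3.73 and -3.29, and *Tnxb*, a tenascin of connective tissue, with -4.54 and -4.64. *Thbd*, thrombomodulin, had -2.49 and -2.48, and *Fn1*, fibronectin, at 784 ± 36 CPM in NL, had -0.93 and -1.77. Large falls in Ly6Ghi were also seen for *Foxa1*, an epithelial transcription factor (-5.60), *Flt4* (-4.15), *Sox7* (-3.96) and *Aplnr* (-3.87) of endothelium, and *Col6a3* (-3.86) and *Dpt* (-3.86) of connective tissue. *Bpifb1* and *Reg3g*, secreted airway proteins, were at 1.75 and 0.993 CPM in NL and at 0 in Ly6Ghi.

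Summed over the 40 genes, the level was 4182, 3929 and 4149 CPM in NL, 540, 528 and 523 CPM in Ly6Ghi and 604, 613 and 593 CPM in Ly6Glow. NL was 7.71-fold above Ly6Ghi and 6.78-fold above Ly6Glow on this scale. As a share of all counts in the library, with no scaling by TMM, the genes took 0.52% to 0.542% in NL, 0.0497% to 0.051% in Ly6Ghi and 0.0478% to 0.0492% in Ly6Glow. On FPKM, which is normalized for transcript length and library depth but not scaled by TMM, the folds were 11.1 and 12. The size of the difference, but not its direction, thus depends on the scale. By class the folds in CPM for Ly6Ghi and Ly6Glow were 7.96 and 7.24 for the epithelial, 6.92 and 5.76 for the endothelial and 8.95 and 8.28 for the fibroblast genes.

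The make-up of the sum differed less than its size. Per length, the fibroblast genes took 9.14% to 9.74% of the FPKM sum of the 40 genes in all 9 libraries. The epithelial genes took 72.6% to 73.3% in NL, 68.6% to 69.9% in Ly6Ghi and 66.9% to 67.2% in Ly6Glow, and the endothelial genes took 17.2% to 17.6%, 20.5% to 22.1% and 23.2% to 24%. The groups did not overlap in these shares. Within the epithelial sum, *Sftpc* held 58.5% in NL but 33.5% in Ly6Ghi and 33.3% in Ly6Glow, where *Hopx* held 31% and 35.6% against 3.05% in NL. *Pecam1* held 18.6% of the endothelial sum in NL and 30.3% and 33.3% in the macrometastatic groups. In mean FPKM, *Sftpc* was the highest of the 40 genes in NL at 1366, before *Scgb1a1* at 231 and *Sftpb* at 169. In Ly6Ghi *Sftpc* at 66.9 ± 2.26 stood before *Hopx* at 62.1 ± 2.04, and in Ly6Glow *Hopx* at 63.7 ± 1.31 stood before *Sftpc* at 59.6 ± 1.91 (SD, n = 3), gaps larger than 1 SD of either gene. Over the 40 genes, Spearman's rho of mean FPKM was 0.9 between Ly6Ghi and NL and 0.88 between Ly6Glow and NL, as a description across genes that share libraries and depth.

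**Figure D3:**
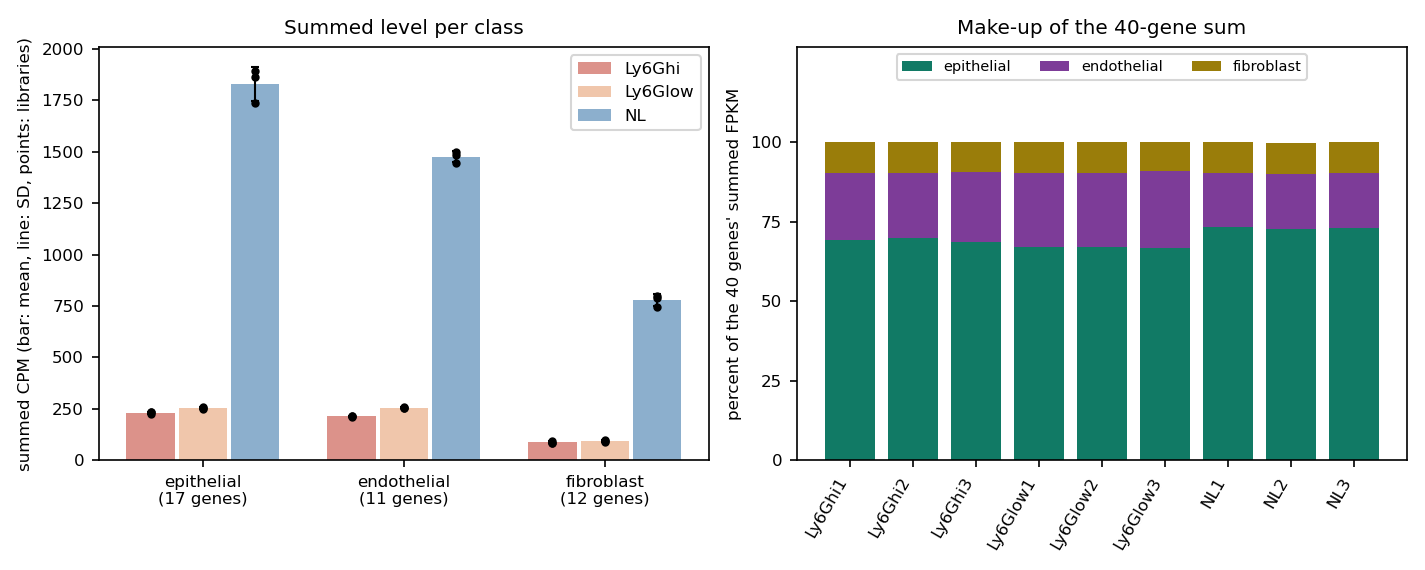
Left, summed CPM of each class (bar, mean of 3 libraries; line, SD; points, libraries), where NL exceeds the other groups 5.76-fold to 8.95-fold. Right, share of each class in the summed FPKM of the 40 genes in each of the 9 libraries, where the fibroblast share stays between 9.14% and 9.74%.

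Other cell types moved with the comparison, and their part in it was not tested. Of 17 alveolar macrophage genes, 14 were called lower in Ly6Ghi and 16 in Ly6Glow than in NL, against 36.6% and 40.8% of all genes tested. The summed level of the 17 genes was 2920 to 2970 CPM in NL, 1780 to 1830 CPM in Ly6Ghi and 403 to 421 CPM in Ly6Glow. Their main genes were *Chil3*, at 964, 1274 and 277 CPM in NL, Ly6Ghi and Ly6Glow, and *Mrc1*, at 428, 119 and 28.6 CPM. *Chil3* held most of the Ly6Ghi sum and was higher there than in NL, with a log2 fold change of 0.40, below the fold threshold. The median of the 17 genes was -2.22 in Ly6Ghi and -4.84 in Ly6Glow, so the Ly6Ghi sum understates the fall of most of them. The 9 erythroid genes with values summed to 22.6 to 26.2 CPM in NL and to at most 0.569 CPM in the macrometastatic libraries, with the globin *Hba-a2* at 0 in both macrometastatic groups and *Hbb-b1* at 0.162 CPM in Ly6Ghi and 0 in Ly6Glow. The 14 genes of T, B and NK cells summed to 107 to 108 CPM in NL, 91.6 to 93.3 CPM in Ly6Ghi and 59.8 to 61.5 CPM in Ly6Glow, led by *Cd3d* at 17.2, 24.6 and 15.1 CPM and *Cd4* at 15.9, 6.97 and 5.42 CPM in the same order. Of the 13 tested, 7 were called lower than in NL and 3 higher in Ly6Ghi, and 8 lower and 1 higher in Ly6Glow. Their median log2 fold changes were -0.765 and -1.36. Of all genes tested, 26.3% and 28.7% were called higher. For 14 platelet genes, which matter for *Vwf*, the sums in NL, Ly6Ghi and Ly6Glow were 51.5 to 52.1, 46.5 to 49.8 and 38 to 40.7 CPM, with *Itgb3* at 20.1, 29.3 and 18.7 CPM and *Itga2b* at 6.3, 6.08 and 6.86 CPM, and the defining *Pf4* stood at 3.78 CPM in NL, 0.546 CPM in Ly6Ghi and 0.492 CPM in Ly6Glow. Of the 11 platelet genes tested, 6 were called lower and 1 higher in each group, with medians of -1.65 and -0.664. The 16 genes of mammary carcinoma epithelium, the injected tumour's tissue of origin, summed to 86.3 to 95.9 CPM in NL, 82.3 to 87.8 CPM in Ly6Ghi and 97.1 to 106 CPM in Ly6Glow. Of the 13 that were tested, 11 were called lower and 2 higher than in NL, in Ly6Ghi and in Ly6Glow alike. Their median log2 fold changes were -3.15 and -2.99, so the sum does not stand for most of these genes. *Krt7* was at 3.13, 4.1 and 27.2 CPM in Ly6Ghi, Ly6Glow and NL and the basal keratin *Krt5* was at 0 in Ly6Ghi and Ly6Glow and at 2.47 CPM in NL.

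The second comparison set the Ly6g-low against the Ly6g-high cells of macrometastatic lung. Of the 40 genes, 3 were called, all lower in Ly6Glow, where 15.9% of all genes tested were called lower and 9.29% higher, 25.2% together. These were the epithelial genes *Krt19*, *Epcam* and *Krt8*. DESeq2 called 2 lower, *Krt19* and *Epcam*, and 2 higher, *Cldn18* and *Bpifa1*, the latter with 4 reads in all. The median log2 fold change was 0.08 over the 39 genes with reads enough for a value, beside -0.04 for all genes tested, and by class it was -0.02 for epithelial, 0.19 for endothelial and 0.08 for fibroblast genes. Of the 11 endothelial and 12 fibroblast genes, 0 were called by edgeR and 0 by DESeq2. At an unadjusted p under 0.05, 6 and 1 of them were higher in Ly6Glow and 0 lower.

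*Krt19* was at 3.45, 3.84 and 3.71 CPM in Ly6Ghi and at 1.54, 1.36 and 1.07 CPM in Ly6Glow, without overlap, a log2 fold change of -1.47 (SE 0.211, adjusted p = 3.55e-06, edgeR). *Epcam* was at 1.42, 2.24 and 2.23 CPM against 0.812, 1.28 and 0.61 CPM, a change of -1.11 (SE 0.279, adjusted p = 0.0018, edgeR). *Krt8* was at 2.09, 1.71 and 1.86 CPM against 1.38, 1.43 and 0.915 CPM, a change of -0.60 (SE 0.233, adjusted p = 0.0336, edgeR), near the fold threshold. *Krt8* was no longer called with DESeq2's size factors (-0.54), or without Ly6Ghi replicate 1 (-0.53) or 3 (-0.62, adjusted p = 0.0544) or Ly6Glow replicate 3 (-0.42). *Epcam* was not called on log2(FPKM + 1), where it stood at -0.50. *Krt18*, the partner of *Krt8*, was at 1.35, 1.24 and 1.3 CPM in Ly6Ghi and 0.894, 0.753 and 1.45 CPM in Ly6Glow, and these overlapped. Over the same pair of groups, 13 of 17 alveolar macrophage genes were called lower in Ly6Glow, against 15.9% of all genes tested, and their part in the 3 calls was not tested.

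A further 11 genes had an adjusted p of at most 0.05 but a difference below the fold threshold. The smallest adjusted p was that of *Pecam1*, with 0.41 (SE 0.0446, adjusted p = 6.17e-08, edgeR) and all Ly6Glow libraries above all Ly6Ghi libraries. *Cdh1* had 0.49 (SE 0.0641), *Acta2* 0.40 (SE 0.0911), *Vwf* 0.36 (SE 0.0747), *Hopx* 0.28 (SE 0.0463) and *Ager* 0.27 (SE 0.0815). In FPKM the libraries of Ly6Ghi and Ly6Glow overlapped for *Hopx*, with means of 62.1 and 63.73, and for *Ager*, with 12.74 and 13.04. Those of *Pecam1*, *Cdh1* and *Vwf* did not overlap in FPKM, with Ly6Glow above. *Cldn18* had 0.55 (SE 0.164) with overlapping libraries, and it was past the threshold with DESeq2's size factors (0.61), or without Ly6Ghi replicate 2 (0.74) or Ly6Glow replicate 2 (0.67). *Scgb1a1* went the other way, with -0.50 (SE 0.106) and Ly6Glow libraries all below, and it passed the threshold on log2(FPKM + 1) with -0.70 and without Ly6Ghi replicate 3 with -0.58. *Cdh5* with 0.19 and *Acta2* had the opposite or no sign on log2(FPKM + 1), with -0.04 and 0.00.

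In all, 11 of the 40 genes had every Ly6Glow library above every Ly6Ghi library and 4 had every one below, against 29% and 33.1% of all genes tested, and 25 overlapped. Examples among the genes whose libraries overlapped were *Sftpc* at 53.3 ± 1.77 and 55.9 ± 1.93 CPM in Ly6Ghi and Ly6Glow, *Kdr* at 9.92 ± 0.732 and 10.4 ± 0.733 CPM, and *Col1a2* at 12.0 ± 1.22 and 12.7 ± 0.907 CPM (SD, n = 3). Their adjusted p missed the threshold, which does not show that they were equal. The summed level of the 40 genes was 603 ± 9.81 CPM in Ly6Glow and 530 ± 8.45 CPM in Ly6Ghi (SD, n = 3), but this order turned on FPKM, at 267 ± 5.79 against 289 ± 6.97.

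**Figure D4:**
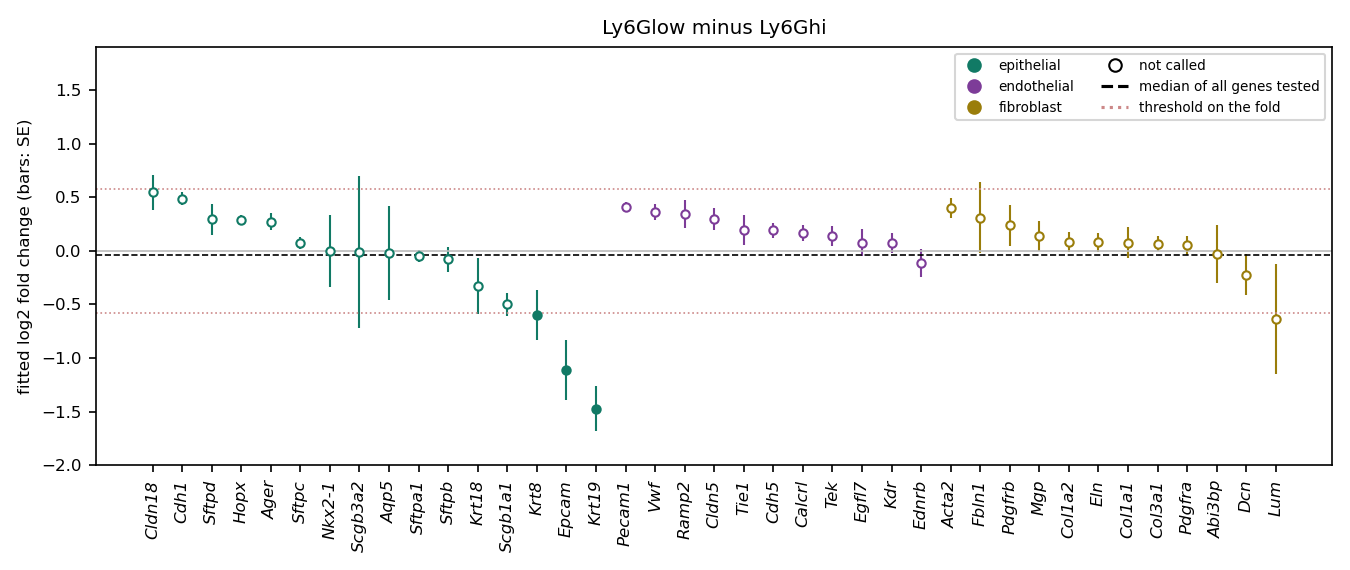
Fitted log2 fold change of Ly6Glow minus Ly6Ghi with its SE for 39 of the 40 genes, *Bpifa1* being left out at 4 reads in all. The filled points, *Krt8*, *Epcam* and *Krt19*, are the 3 called genes, and the dotted lines mark the fold threshold of 0.58 on either side.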

How the data were processed

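Bulk RNA-seq of sorted lung neutrophils (9 libraries, 3 groups of 3) was taken from the deposited tables. Sequencing was done by BGI. The aligner and the counting program are not given in the sources used here. The genome build is mm10, per the submitters' processing notes. The authors deposited an estimated count per gene and library, not normalized, of which 37.9% were whole to within 1e-09, and all were rounded for the tests. The authors also deposited FPKM, normalized for transcript length and library depth. Of 22064 genes listed, 3739 were blank, 18325 had values and 14108 passed edgeR's filterByExpr by group.

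Counts were tested over all 9 libraries by edgeR's quasi-likelihood test (edgeR 4.0.16, R 4.3.3, TMM scaling) with Benjamini-Hochberg adjustment over all genes tested. The script was tested on simulated data. The study's methods name DESeq2, which was run as an alternative (DESeq2 1.42.0), as was limma 3.58.1 on log2(FPKM + 1) and log2(FPKM + 0.1). The fold threshold of 0.58 follows the study's methods. The exact permutation test of 3 against 3 cannot go below p = 0.1 and was not used. The 40 genes and the other lists were chosen with earlier results of these data known. All 40 genes were named, and from each other list the 2 genes of highest mean CPM and, for the structural lists, the 3 of largest change. 1 gene that this rule names is not reported here. Gene positions and promoter windows come from RefSeq (GRCm38.p6), and overlaps from GENCODE.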

Additional observations from a re-analysis of the deposited data

How the results depend on the processing

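The count of the 40 genes called was 39 in Ly6Ghi minus NL, under each alternative but a fold threshold of 1, which left 38 without *Cdh1*, and in each fit without 1 library (39 to 39, by class 16, 11 and 12). For Ly6Glow minus NL it was 38 in each fit without 1 library (15, 11 and 12 by class), and 38 or 39 under the other alternatives. *Hopx* and *Cdh1* decided the exceptions. *Hopx* changed sign on log2(FPKM + 1), to -0.195 in Ly6Ghi and -0.158 in Ly6Glow, on log2(FPKM + 0.1), to -0.198 and -0.16, and with FPKM of at least 1 in 3 libraries, to -0.195 and -0.158. *Cdh5* in Ly6Glow minus Ly6Ghi changed sign to -0.039, -0.045 and -0.039 under these 3 settings, and *Acta2* to -0.001, 0 and -0.001. The cause was not tested.

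Between Ly6Glow and Ly6Ghi the count of 3 ran from 2 to 5 without 1 library, and so did that of the epithelial genes, with 5 without Ly6Glow replicate 2, where *Bpifa1* and *Cldn18* were also called, higher. The endothelial and fibroblast counts were 0 in each such fit. *Krt19* was called in every fit run at the fold threshold of 0.58. *Bpifa1*, with an adjusted p of 0.0588, was called higher by DESeq2, with the replicate block and without Ly6Glow replicate 2. Of the other 25 genes with an adjusted p above 0.05, whose fold changes are not given singly, 5 changed sign with DESeq2's size factors and 13 on log2(FPKM + 1), and 0 were called in any setting, also by DESeq2 and limma.

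With FPKM as deposited, the log2 ratio of the summed level, Ly6Ghi over NL, was -3.468 for all 40 genes, -3.177 for endothelial, -3.545 for epithelial and -3.484 for fibroblast genes, and Ly6Glow over NL -3.582, -3.142, -3.706 and -3.606. Ly6Glow over Ly6Ghi turned to -0.114 for all, -0.161 for epithelial and -0.122 for fibroblast genes, and was 0.035 for endothelial genes. The scale also moves the median of all genes tested, from -0.088 to -0.324 on log2(FPKM + 1) for Ly6Ghi minus NL, from -0.156 to -0.489 for Ly6Glow minus NL and from -0.041 to -0.134 for Ly6Glow minus Ly6Ghi. The share of lower calls among all calls rose with it, from 58.2% to 78.2%, from 58.7% to 85.1% and from 63.2% to 85.7%. Relative to all genes, the median of the 40 genes was -3.33 and -2.82 in Ly6Ghi minus NL.

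The replicate numbers gave no sign of pairing: correlations of same-numbered libraries' deviations lay between -0.068 and 0.077. Most replicates differed little beyond counting noise, so these correlations cannot show whether same-numbered libraries came from the same lungs. A fit with a replicate block gave 39, 38 and 4 calls in the 3 comparisons, the additional call being *Bpifa1*. Depth limits the genes under about 1 CPM, such as *Lum*, *Scgb3a2* and *Bpifa1*.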
